A study of Mus musculus with 21 samples.

Results

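Lymphotoxin and tumor necrosis factor (TNF) with their receptors were followed in primary B cell precursors by RNA sequencing. The 6 genes are the ligands Lta, Ltb and Tnf and the receptors Ltbr, Tnfrsf1a and Tnfrsf1b, found by gene symbol in the deposited count and FPKM tables of 24421 symbols. They were chosen by name as ligands and receptors of a single system, with the difference of Lta and Ltb between BCR-ABL1 and C-MYC cells known beforehand. That difference is therefore given as a description with no test for all 6 genes, and Lta and Ltb have no test in any comparison. All 6 passed the filter on low counts, which left 12786 genes for testing.

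The cells were bone marrow B cell precursors from 53BP1-/- C57BL/6 mice, so that 53BP1, a factor in DNA break repair, was missing in all 3 conditions. They were cultured with IL-7 at 10 ng/ml and transduced with the retroviral vector MIGR1 without an insert (EV), with BCR-ABL1p210, or with C-MYC. BCR-ABL1 is the fusion kinase of Philadelphia chromosome-positive leukemia, and C-MYC is a transcription factor that drives growth. Poly(A) RNA was taken from each culture between days 7 and 9 after transduction. Each condition had 2 libraries, and no other genotype was sequenced for RNA, so effects of the 53BP1 deletion cannot be seen. Each oncogene was expressed from the retrovirus in bulk cultures, not from its own locus.

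TNF family ligands are made as trimers on the cell surface, and binding clusters their receptors. Lta encodes lymphotoxin α, which is secreted as a homotrimer or held at the membrane in a complex with lymphotoxin β, the product of Ltb. That membrane complex signals through the lymphotoxin β receptor (Ltbr), whereas TNF and soluble lymphotoxin α bind TNFR1 (Tnfrsf1a) and TNFR2 (Tnfrsf1b). The receptors recruit TRAF adaptors and activate NF-κB. B lymphocytes are a known source of the lymphotoxin complex, which organizes lymphoid tissue, while Ltbr is known mainly from stromal and myeloid cells.

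The ligand genes lie side by side on chromosome 17 of the GRCm38 build. Lta (ENSMUSG00000024402) occupies chr17:35203165-35205351 on the minus strand, Tnf (ENSMUSG00000024401) chr17:35199381-35202007 on the same strand, and Ltb (ENSMUSG00000024399) chr17:35194439-35196320 on the plus strand. Together they span 10.913 kb, with 1.157 kb between Tnf and Lta and 3.06 kb between Ltb and Tnf. The genes for both receptors on chromosome 6 are also close, with 35.476 kb between Ltbr (ENSMUSG00000030339, chr6:125306571-125313885, minus strand) and Tnfrsf1a (ENSMUSG00000030341, chr6:125349362-125362484, plus strand). Tnfrsf1b (ENSMUSG00000028599) is on chromosome 4 at chr4:145213463-145246870 on the minus strand. None of the 6 shares exon bases with another annotated gene.

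The sequence just upstream of each ligand gene is shown because all 3 ligand genes were highest in the same condition. They are RefSeq sequences of GRCm38.p6, written 5′ to 3′ on the strand of the gene, from chr17:35205352-35205601 for Lta, chr17:35202008-35202257 for Tnf and chr17:35194257-35194438 for Ltb. Each starts 250 bases before the RefSeq start of the gene, and that of Ltb stops where an annotated exon begins. Capitals mark matches on either strand to an NF-κB pattern, which is GGG and CC with 5 bases between them, or to the STAT pattern TTCNNNGAA.
Lta: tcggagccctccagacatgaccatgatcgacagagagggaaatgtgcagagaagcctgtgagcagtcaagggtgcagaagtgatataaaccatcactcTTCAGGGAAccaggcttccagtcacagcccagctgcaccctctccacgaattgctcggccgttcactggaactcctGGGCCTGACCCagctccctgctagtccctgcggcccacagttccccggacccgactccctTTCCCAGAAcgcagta
Tnf: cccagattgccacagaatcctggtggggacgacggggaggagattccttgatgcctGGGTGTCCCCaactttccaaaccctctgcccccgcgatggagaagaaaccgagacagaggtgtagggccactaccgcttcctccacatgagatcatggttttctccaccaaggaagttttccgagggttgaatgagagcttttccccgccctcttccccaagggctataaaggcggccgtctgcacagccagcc
Ltb: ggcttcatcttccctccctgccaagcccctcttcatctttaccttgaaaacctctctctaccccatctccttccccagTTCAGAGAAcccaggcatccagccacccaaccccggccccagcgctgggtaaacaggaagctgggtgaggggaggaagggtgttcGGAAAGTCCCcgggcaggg
The run in capitals in the Lta sequence between bases -76 and -66, counted from the start, holds 2 overlapping NF-κB matches on opposite strands, and the STAT pattern matched at -152 to -144 and at -16 to -8. In the Ltb sequence the STAT pattern matched at -172 to -164 and the NF-κB pattern at -87 to -78. Further overlapping NF-κB matches lay between -40 and -29, past the end of the printed Ltb sequence. The Tnf sequence had an NF-κB match on both strands at -194 to -185 and no STAT match. The E-box CACGTG, the motif bound by MYC, was in none of the 3. The matches were not particular to the ligand genes. In the 250 bases before the RefSeq start, the NF-κB pattern also matched for Ltbr, Tnfrsf1a and Tnfrsf1b. There the STAT pattern matched for Tnfrsf1a and Tnfrsf1b, and the E-box for Ltbr. Over 32851 mouse promoters, each searched in the 250 bases before the start, 45.8% held the NF-κB pattern, 7.02% the STAT pattern and 6.02% the E-box. These matches describe the letters and not the binding of any factor.

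Counts per library lay between 20687092 and 24095955. Levels of a gene across libraries are given as CPM, counts relative to the TMM-scaled size of the library. The B lineage marker Cd79a was abundant in every library, at 603 to 1653 CPM. The EV libraries also held RNA of other cells. Summed over marker lists, T and NK cell genes reached 149 to 204 CPM with the empty vector, 40.1 to 40.6 with BCR-ABL1 and 33 to 39.9 with C-MYC. Most of the sum with an oncogene was Lat, an adaptor gene of the T cell receptor, named after its values were seen, which was the 1 gene of the list not called and stood at 26.5 to 35.2 CPM in all 6 libraries. Macrophage and monocyte genes reached 929 to 1320, 149 to 186 and 261 to 453 CPM, and neutrophil genes 330 to 1030, 26.6 to 40.6 and 28 to 37.8 CPM, in the same order. Stromal genes reached 110 to 164 CPM in EV and at most 6.32 CPM with an oncogene, with 1 of 8 at 0 in both BCR-ABL1 libraries and 3 of 8 at 0 in both C-MYC libraries. Of the erythroid list, 4 of 6 genes had 0 counts in each condition, and its sum did not exceed 1.54 CPM. Some of these genes had low FPKM values above 0 in EV and BCR-ABL1, so 0 counts do not show that their RNA was absent. In bulk RNA, fewer cells of a type and less RNA per cell cannot be told apart.

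**Figure D1:**
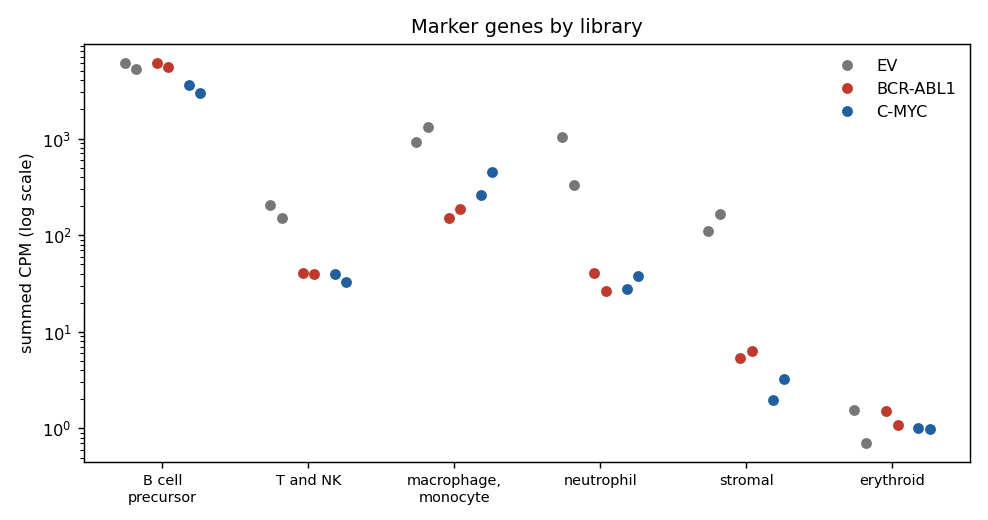
Summed CPM of marker gene lists on a log axis, 1 point per library. EV libraries held the most RNA of T and NK, macrophage, neutrophil and stromal genes, while B cell precursor genes reached 5290 to 5980 CPM with the empty vector, 5460 to 6050 with BCR-ABL1 and 2960 to 3560 with C-MYC.

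All 3 ligand genes were at their highest in the BCR-ABL1 libraries and, by the condition mean, at their lowest in C-MYC. Lta, which encodes the subunit shared by both forms of lymphotoxin, had 621 and 1587 counts with the empty vector, 4893 and 4432 with BCR-ABL1, and 692 and 499 with C-MYC. As CPM these were 29.0 and 66.3, 231.9 and 184.1, and 31.8 and 22.4. Both BCR-ABL1 libraries were far above all others, the EV libraries differed from each other, and those of EV and C-MYC overlapped. The mean was 47.7 ± 26.4 CPM with the empty vector, 208 ± 33.8 with BCR-ABL1 and 27.1 ± 6.65 with C-MYC (SD, n = 2). Fitted with edgeR, Lta was 4.36-fold higher in BCR-ABL1 than in EV (log2 fold change 2.12, SE 0.36) and its log2 difference between C-MYC and EV was -0.82 (SE 0.36), neither of them tested. The size of both depended on the EV library used. The log2 difference of BCR-ABL1 from EV was 2.84 without EV replicate 2 and 1.65 without EV replicate 1, and that of C-MYC from EV was -0.10 (SE 0.22) and -1.29 (SE 0.21).

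Ltb, which anchors lymphotoxin at the membrane, had 850 and 871 counts with the empty vector, 2288 and 2284 with BCR-ABL1, and 269 and 207 with C-MYC. The corresponding CPM were 39.7 and 36.4, 108.5 and 94.9, and 12.4 and 9.30. The libraries of the 3 conditions did not overlap, and replicates of Ltb lay close together. It was 2.67-fold higher in BCR-ABL1 than in EV (log2 1.42, SE 0.16) and 3.51-fold lower in C-MYC than in EV (log2 -1.81, SE 0.17), as a description.

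Tnf, the inflammatory cytokine of the family, had 319 and 482 counts with the empty vector, 1051 and 985 with BCR-ABL1, and 206 and 173 with C-MYC. In CPM it stood at 14.9 and 20.15, 49.8 and 40.9, and 9.47 and 7.77. As with Ltb, BCR-ABL1 libraries were above and C-MYC libraries below those of EV without overlap. Tnf rose 2.58-fold with BCR-ABL1 (log2 1.37, SE 0.20, edgeR quasi-likelihood test, adjusted p = 0.00415) and fell 2.04-fold with C-MYC (log2 -1.03, SE 0.21, adjusted p = 0.00592). The latter call was lost without C-MYC replicate 2 (log2 -0.88, adjusted p = 0.0517).

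**Figure D2:**
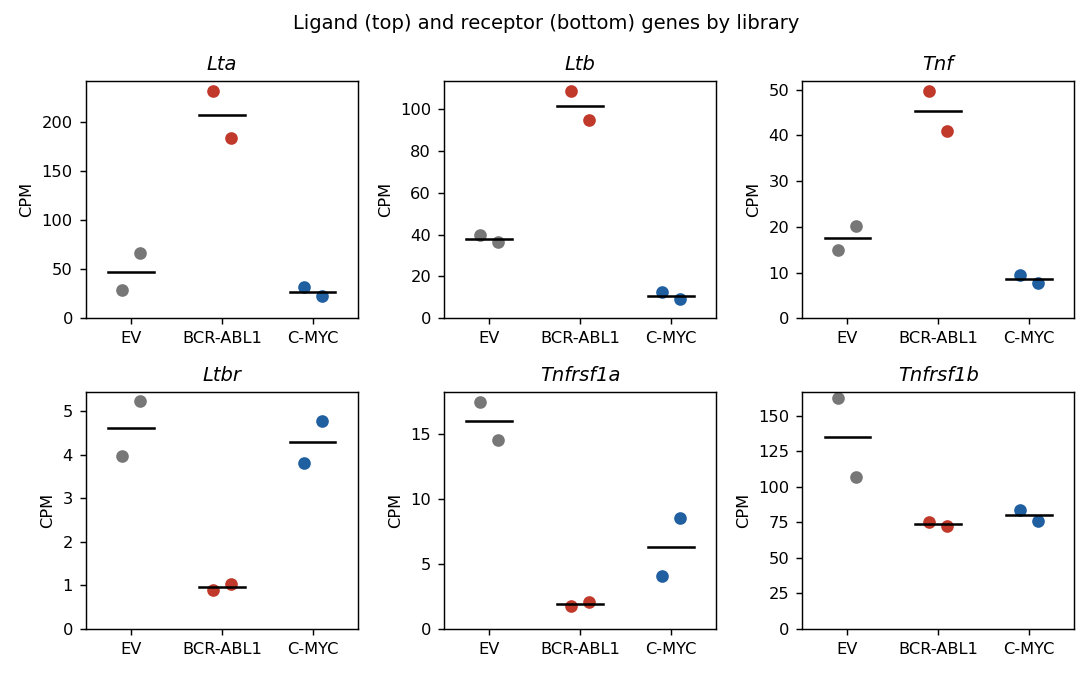
CPM of the 6 genes, each with its own linear axis from 0. Points are single libraries and bars are the mean of 2 libraries. Ligands in the top row were highest in BCR-ABL1, with Lta at 231.9 and 184.1 CPM, while receptors in the bottom row had their highest mean in EV.

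T and NK cells, macrophages and neutrophils can also make TNF and lymphotoxin. Their summed marker genes were lower in both BCR-ABL1 libraries than in both EV libraries, while the ligand genes were higher. In C-MYC these marker sums and the mean levels of all 3 ligands were below those of EV. B cell precursor markers were lower in C-MYC as well, where 9 of 10 fell, beside 24.5% of all genes. With BCR-ABL1, 3 of 10 fell, beside 12.0% of all genes. The part of any of these cell types in the ligand values with BCR-ABL1 or C-MYC was not tested.

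All 3 receptor genes fell with BCR-ABL1, and Tnfrsf1a and Tnfrsf1b also fell with C-MYC. Ltbr, the receptor of the membrane lymphotoxin complex, had 85 and 125 counts with the empty vector, 19 and 25 with BCR-ABL1, and 83 and 106 with C-MYC. This amounted to 3.97 and 5.225, 0.901 and 1.04, and 3.815 and 4.76 CPM. Its level was low throughout, lowest in both BCR-ABL1 libraries, and overlapped between EV and C-MYC. Ltbr fell 4.72-fold with BCR-ABL1 (log2 -2.24, SE 0.31, adjusted p = 0.0034). Between C-MYC and EV its log2 difference was -0.10 (SE 0.28, adjusted p = 0.791), and that sign turned when EV replicate 2 (0.11) or C-MYC replicate 1 (0.05) was left out.

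Tnfrsf1a encodes TNFR1, the death domain receptor found on most cell types. It had 373 and 347 counts with the empty vector, 37 and 49 with BCR-ABL1, and 89 and 189 with C-MYC, or 17.4 and 14.5, 1.75 and 2.04, and 4.09 and 8.49 CPM. The conditions did not overlap, and the C-MYC libraries differed between themselves. Tnfrsf1a fell 8.39-fold with BCR-ABL1 (log2 -3.07, SE 0.37, adjusted p = 0.00184) and 2.54-fold with C-MYC (log2 -1.34, SE 0.33, adjusted p = 0.0137). The second call was lost without C-MYC replicate 1 (log2 -0.90, adjusted p = 0.0544).

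Tnfrsf1b encodes TNFR2, which lacks a death domain and is known mainly from blood cells. By FPKM it was the most abundant of the 3 receptors in every library, from 30.2 to 70.4, with 3473 and 2562 counts with the empty vector, 1583 and 1734 with BCR-ABL1, and 1820 and 1695 with C-MYC. Its CPM were 162.3 and 107.1 with the empty vector, 75.0 and 72.05 with BCR-ABL1, and 83.7 and 76.1 with C-MYC. Both EV libraries stood above all libraries with an oncogene. Tnfrsf1b fell 1.83-fold with BCR-ABL1 (log2 -0.87, SE 0.19, adjusted p = 0.0179) and 1.69-fold with C-MYC (log2 -0.75, SE 0.19, adjusted p = 0.0141). Both calls were lost when either library of the oncogene was left out, with adjusted p = 0.0987 and 0.13 without BCR-ABL1 replicate 1 and 2, and 0.0623 and 0.0929 without C-MYC replicate 1 and 2. Without EV replicate 1, the log2 differences were -0.54 and -0.42.

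Markers of other cells fell beside the receptors. Csf1r, the receptor that defines macrophages and monocytes, stood at 82.5 and 144.7 CPM with the empty vector, 10.6 and 12.05 with BCR-ABL1, and 29.9 and 54.9 with C-MYC. As with Tnfrsf1a, C-MYC lay between EV and BCR-ABL1 and its replicate 2 was the higher of the pair, whereas in EV replicate 2 was the higher for Csf1r and the lower for Tnfrsf1a. Cd3e, which defines T cells, stood at 17.1 and 15.4 CPM in EV and at no more than 1.12 CPM in any library with an oncogene. Of the macrophage and monocyte list, 10 of 10 genes fell with BCR-ABL1 and 8 of 10 with C-MYC, and of the T and NK list 10 of 11 fell with each. Of the neutrophil list, 8 of 8 fell with each oncogene, and of the 6 stromal genes tested, 5 fell with BCR-ABL1 and 6 with C-MYC. The part of these cells in the receptor values was not tested.

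Over all genes tested, 5.08% were called higher and 12.0% lower in BCR-ABL1 against EV, and 18.6% and 24.5% in C-MYC against EV. Of the 4 members tested, 1 was called higher and 3 lower with BCR-ABL1, and 0 higher and 3 lower with C-MYC, where 1 was not called. Libraries of BCR-ABL1 and EV did not overlap for any member, with 3 members higher and 3 lower, while 29.2% and 29.7% of all genes were separated in these directions. Between C-MYC and EV, 4 members were lower without overlap and 2 overlapped, against 31.5% of all genes higher and 39.1% lower. With 2 libraries a condition, separation alone was thus common. Both comparisons share the EV libraries. Lta and Ltb are among the members separated in BCR-ABL1 against EV, and Ltb among those in C-MYC against EV. Their difference between the oncogenes was known beforehand, so nothing is read from these counts of separation.

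Directly between the oncogenes, the ligands were higher in BCR-ABL1 than in C-MYC, by 2.94 (SE 0.37) for Lta, 3.23 (SE 0.18) for Ltb and 2.40 (SE 0.21) on the log2 scale for Tnf. The receptor differences were -2.14 (SE 0.31) for Ltbr, -1.73 (SE 0.37) for Tnfrsf1a and -0.12 (SE 0.19) for Tnfrsf1b. No member overlapped between the libraries of these conditions, 3 being higher and 3 lower, beside 35.4% and 34.5% of all genes. As this comparison entered the choice of the genes, nothing is read from these counts. The Tnfrsf1b value was smaller than its standard error.

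**Figure D3:**
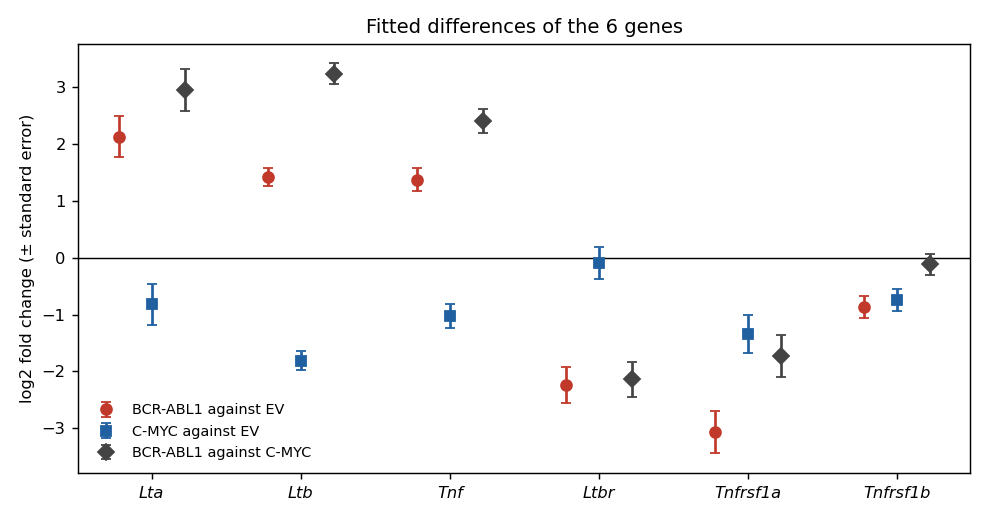
Fitted log2 fold changes of the 6 genes in the 3 comparisons, with bars of 1 standard error. Ligands lay above 0 in BCR-ABL1 against EV (2.12, 1.42 and 1.37) and below 0 in C-MYC against EV, while receptor values lay below 0 in both, with Ltbr in C-MYC at -0.10.

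Levels of different genes were compared per length, as FPKM, in which fragments are scaled to transcript length and library size. In BCR-ABL1, Lta led at 153.6 ± 24.7 FPKM, followed by Ltb at 66.1 ± 5.60, Tnfrsf1b at 30.6 ± 0.547, Tnf at 11.8 ± 1.68, Tnfrsf1a at 0.500 ± 0.0553 and Ltbr at 0.334 ± 0.0423 (SD, n = 2), with no overlap between neighbors in this order. By CPM per kilobase of annotated exon, Tnf (30.4 and 24.97) was instead above Tnfrsf1b (19.65 and 18.87) in BCR-ABL1, so the order of these genes depended on the scale. The Lta mean ranked 623 of the 24421 symbols there, 2531 in EV and 4019 in C-MYC. In EV, Tnfrsf1b had the highest mean at 59.0 ± 16.1 FPKM, above Lta at 39.0 ± 19.5 and Ltb at 26.2 ± 0.665, but the libraries of these neighbors overlapped. Tnf at 4.82 ± 1.09 and Tnfrsf1a at 4.38 ± 0.490 FPKM also overlapped in EV, and Ltbr was last at 1.68 ± 0.361 FPKM. In C-MYC the order was Tnfrsf1b at 32.1 ± 1.12, Lta at 20.2 ± 3.41, Ltb at 6.81 ± 1.25, Tnf at 2.13 ± 0.179, Tnfrsf1a at 1.60 ± 0.841 and Ltbr at 1.44 ± 0.261 FPKM. Tnfrsf1a overlapped there with both Tnf and Ltbr. By CPM per kilobase, Tnf was instead above Tnfrsf1a without overlap in EV (9.098 and 12.29 against 6.729 and 5.598). The same held in C-MYC (5.777 and 4.74 against 1.579 and 3.276). The order of Lta and Tnfrsf1b in EV and C-MYC was also less certain by CPM per kilobase, on which scale their means were 34.5 and 35.3 in EV and 19.6 and 20.9 in C-MYC.

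Among the other genes of the pathway, more fell than rose with each oncogene, as was also so over all genes tested. Of 88 genes in 5 lists, 75 passed the filter. With BCR-ABL1, 3 were called higher and 24 lower, beside 5.08% and 12.0% of all genes (median log2 difference -0.27, all tested genes 0). With C-MYC, 4 were called higher and 41 lower, beside 18.6% and 24.5% of all genes (median -0.59, all tested genes -0.08). Between the oncogenes 17 were higher in BCR-ABL1 and 1 was lower, beside 11.9% and 11.5% of all genes. The marker lists of other cells fell beside them, as given above, and their part in these counts was not tested. The counts depended on single libraries. In each fit named next, the number called over all tested genes moved the same way as the pathway count. Nothing particular to the pathway is therefore read from these changes. Called genes that were lower with BCR-ABL1 numbered 6 and 4 without BCR-ABL1 replicate 1 and 2, and those higher numbered 1 without either and 5 without EV replicate 1. Those lower with C-MYC numbered 25 without C-MYC replicate 2, and those higher 0 without C-MYC replicate 1. Between the oncogenes, the number higher in BCR-ABL1 was 3 and 8 without BCR-ABL1 replicate 1 and 2, 6 and 4 without C-MYC replicate 1 and 2, and 30 when EV replicate 1 or EV replicate 2 was left out.

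Among 8 other TNF superfamily ligands tested, 2 rose and 4 fell with BCR-ABL1, beside 5.08% and 12.0% of all genes. With C-MYC, 0 rose and 6 fell, beside 18.6% and 24.5% of all genes. Tnfsf8, the ligand of CD30, had 417 and 318 counts with the empty vector, 1008 and 837 with BCR-ABL1, and 85 and 60 with C-MYC. Like Ltb and Tnf it was above EV with BCR-ABL1 (log2 1.33, SE 0.26, adjusted p = 0.012) and below with C-MYC (log2 -2.31, SE 0.29, adjusted p = 0.000834). Tnfsf11, which encodes the osteoclast factor RANKL, rose with BCR-ABL1 (log2 1.38, SE 0.23, adjusted p = 0.00735). Tnfsf10, the death ligand TRAIL, fell with both (log2 -1.18 and -0.74), and Tnfsf4, the OX40 ligand, fell with C-MYC (log2 -1.33). Tnfsf14 (LIGHT), the other ligand of the lymphotoxin β receptor, was picked after its values were seen, for that role. It had 106 and 79 counts with the empty vector, 19 and 16 with BCR-ABL1, and 1 and 9 with C-MYC, and fell with both (adjusted p = 0.021 and 0.00192). Its direction with BCR-ABL1 was opposite to that of Lta and Ltb. Between the oncogenes, Tnfsf8 (log2 3.64), Tnfsf4 (1.55) and Tnfsf11 (0.77) were higher in BCR-ABL1.

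Of 20 other TNF receptor superfamily genes tested, 1 rose and 9 fell with BCR-ABL1, beside 5.08% and 12.0% of all genes. With C-MYC, 2 rose and 9 fell, beside 18.6% and 24.5% of all genes. Relt, a receptor of lymphoid tissue, was the one that rose with BCR-ABL1 (log2 0.69, SE 0.15, adjusted p = 0.0177). Of those averaging 50 or more counts, the largest falls there were of Tnfrsf9 (4-1BB, a costimulatory receptor of T and NK cells, log2 -3.59) and Cd27 (a lymphocyte costimulatory receptor, log2 -2.51), and Tnfrsf18 (GITR) fell least among the genes named by the rule (log2 -0.95). With C-MYC, Tnfrsf22 (log2 1.03) and Tnfrsf19 (log2 0.86) rose, while Tnfrsf9 (log2 -5.02) and Fas, the receptor of Fas ligand (log2 -3.21), fell. Tnfrsf26 (log2 1.13), Relt (1.04) and Tnfrsf13b, which encodes the BAFF and APRIL receptor TACI (0.95), were higher in BCR-ABL1 than in C-MYC.

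Of 26 genes of receptor-proximal signaling, 0 rose and 4 fell with BCR-ABL1, beside 5.08% and 12.0% of all genes. Nothing particular to the list is read from these counts, as they lay near those shares. With C-MYC, 1 rose and 13 fell, beside 18.6% and 24.5% of all genes. Traf1, an adaptor that is itself induced by NF-κB, had a log2 fold change of -2.98 in both (adjusted p = 0.00398 and 0.00154). Birc3, which encodes the ubiquitin ligase cIAP2, fell by 0.65 and 1.51 on the log2 scale. With BCR-ABL1 the caspase inhibitor gene Cflar (log2 -0.75) and Rnf31, a subunit of the linear ubiquitin ligase (log2 -0.54), fell as well. With C-MYC, Traf3, an inhibitor of noncanonical NF-κB signaling, rose (log2 0.56, adjusted p = 0.00675) and Casp8, the initiator caspase, fell (log2 -0.48). Between the oncogenes, Birc3 (0.86), Casp8 (0.85) and the adaptor gene Traf6 (0.54) were higher in BCR-ABL1, and Traf3 was lower (log2 -0.52). In all, 5 were higher and 1 lower, beside 11.9% and 11.5% of all genes.

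In the list of NF-κB subunits and feedback, 0 of 11 rose with either oncogene, 5 fell with BCR-ABL1 and 8 with C-MYC. Over all genes, 5.08% rose and 12.0% fell with BCR-ABL1, and 18.6% and 24.5% with C-MYC. Nothing is read from the counts of 0. With BCR-ABL1 the falls included Bcl3, a nuclear IκB protein (log2 -1.64), Nfkb2, the precursor of p52 (log2 -0.99), and the IκB genes Nfkbie (log2 -0.79) and Nfkbia (log2 -0.65). With C-MYC, Bcl3 (log2 -1.96) and Relb, the partner of p52 (log2 -1.69), fell most, and Tnip1 (log2 -0.50) and Nfkb1 (log2 -0.38) fell least among those called. In the direct comparison 5 of the 11 were higher in BCR-ABL1, beside 11.9% of all genes. They included Rel (0.87), Nfkbie (0.86), Nfkbia (0.58) and Nfkb1 (0.34) on the log2 scale.

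Of the genes that shed TNF from the surface or control the decay of its mRNA, 10 were tested. Zfp36, which encodes tristetraprolin, the protein that marks Tnf mRNA for decay, fell with BCR-ABL1 (log2 -0.82, SE 0.13, adjusted p = 0.00584) and with C-MYC (log2 -1.17, SE 0.13, adjusted p = 0.000604). Timp3, an inhibitor of the TNF-shedding protease, fell with BCR-ABL1 (log2 -0.72). That made 0 higher and 2 lower, beside 5.08% and 12.0% of all genes, so nothing particular to the list is read from them. With C-MYC 1 rose and 5 fell, beside 18.6% and 24.5% of all genes. The falls included the related decay gene Zfp36l1 (log2 -1.19) and the ribonuclease gene Zc3h12a (log2 -0.58), while Elavl1, an mRNA-stabilizing protein gene, rose (log2 0.46). Zfp36l1 was the 1 gene of the list that was higher in BCR-ABL1 than in C-MYC (log2 0.92), beside 11.9% of all genes. The mRNA levels do not separate transcription from decay.

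**Figure D4:**
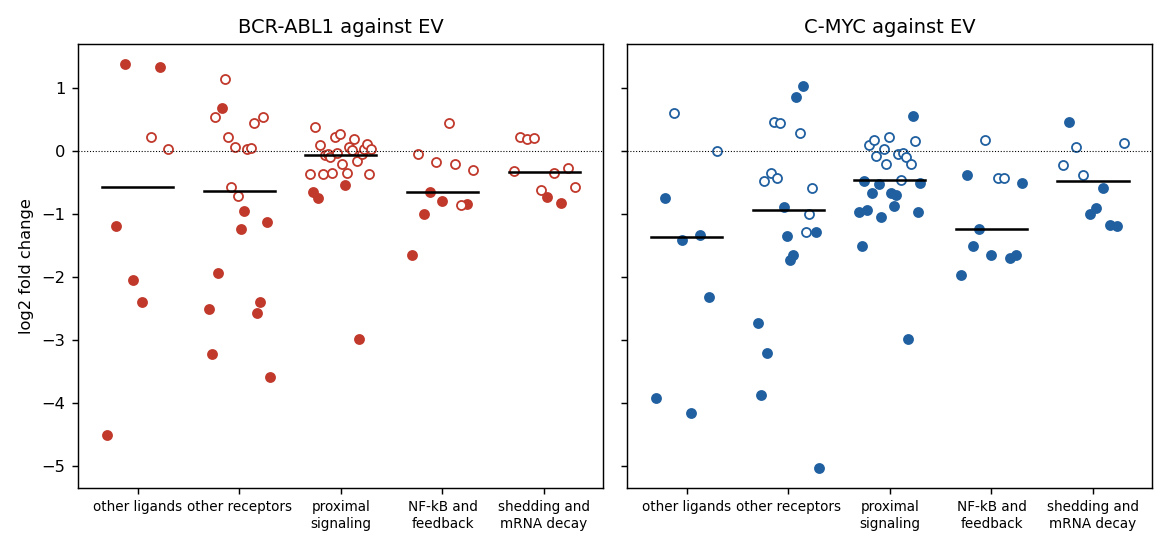
Log2 fold changes of the tested genes of 5 pathway lists, BCR-ABL1 against EV on the left and C-MYC against EV on the right. Filled points were called at an adjusted p below 0.05, open points were not, and bars are list medians. Most called genes lay below 0, and the points above 0 on the left include Tnfsf11 (1.38) and Tnfsf8 (1.33).

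Genes near the members on chromosomes 17, 6 and 4 were also listed. The list was not complete, since Cd27 and Tnfrsf8, counted above among the receptors, lie near Ltbr and Tnfrsf1b, and it reached as far as Miip at chr4:147860778-147868816. Of 21 neighbors listed, 19 were in the tables and 16 were tested, of which 0 rose and 4 fell with BCR-ABL1 by edgeR's quasi-likelihood test, and 1 rose and 6 fell with C-MYC. Over all genes, 5.08% were called higher and 12.0% lower with BCR-ABL1, and 18.6% and 24.5% with C-MYC. Nothing particular to the neighbors is read from these counts. Nfkbil1, which borders Lta, had a log2 difference of -0.05 with BCR-ABL1 (SE 0.16, adjusted p = 0.876) and of -0.50 with C-MYC (SE 0.16, adjusted p = 0.035). Aif1, a macrophage gene close to the ligand genes, fell with both (log2 -4.03 and -3.17). Near the receptor genes, Tapbpl fell with both (log2 -1.14 and -1.41), Dhrs3 fell with BCR-ABL1 (log2 -1.34) and Mrpl51 rose with C-MYC (log2 0.51). Between the oncogenes 0 neighbors were called by edgeR's quasi-likelihood test, beside 11.9% of all genes higher and 11.5% lower.

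The genes with the most similar profiles were found by the root mean square difference of centered log2 CPM over the 6 libraries, among 10622 genes. For Lta they were Fxyd6 (0.306), Tmem255a (0.312) and Pnp2 (0.352), and for Ltb they were Nov (0.188), Pcdh11x (0.246) and the CD30 ligand gene Tnfsf8 (0.25). Those of Tnf were Mycn (0.122), a paralog of the MYC gene, Sema7a (0.132) and Adgrl2 (0.165). Ltbr was most like Rab11fip5 (0.0602), Nrp2 (0.143) and Nlrp6 (0.167). Tnfrsf1a was most like Igsf6 (0.129), Tyrobp (0.179), an adaptor gene of myeloid and NK cells, and Xdh (0.2). For Tnfrsf1b they were Irf8 (0.0626), a transcription factor gene of myeloid and B cells, Hist1h1c (0.0734) and Adgre5 (0.0882). The nearest gene was thus farthest for Lta and closest for Ltbr. That of Lta, Fxyd6, had low counts, at 20 to 31 with the empty vector and 7 to 16 with C-MYC.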

How the data were processed

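Poly(A) RNA-seq of 53BP1-/- B cell precursors was analysed in 6 libraries, 2 for each of 3 conditions, and the tables held 0 columns of other samples. The labels gave the condition and replicate number of each. The authors extracted RNA in duplicate experiments, and whether these were separate animals is not given in the sources used here, so p-values measure the spread between these libraries, which may be partly technical. ChIP-seq files were not used here.

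The authors aligned reads with STAR 2.5.0 and, per the labels, used GRCm38/mm10. The authors deposited whole-number counts per gene symbol without normalization, and deposited FPKM values made with StringTie 1.3.0. The counting program and its strand setting are not given in the sources used here.

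From the counts, edgeR 4.0.16 (R 4.3.3) fitted all 6 libraries without a covariate after filterByExpr by condition and TMM scaling, and gave CPM on that scale. Calls are from its quasi-likelihood test, with p adjusted by Benjamini-Hochberg over 12786 genes and a threshold of 0.05. The SE is the log2 fold change divided by the square root of F. Replicates of each condition differed by more than sampling noise. The fit was tested on simulated data. The common biological coefficient of variation was 0.151. Depth also limits genes of low counts, such as Ltbr and Tnfrsf1a in BCR-ABL1. Positions are 1-based, from GENCODE of GRCm38, with an exon length for 95.7% of symbols. Promoters are from RefSeq.

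The members, lists and tests were chosen with earlier results of these data known. Named genes are the 6 members. For each list they are the 2 highest and 2 lowest log2 fold changes called per comparison with a mean of at least 50 counts. For each member they are also the 3 genes nearest in profile, and Cd79a, Cd3e and Csf1r as defining markers, with 1 further marker not reported here. Tnfsf14, Lat, Tnfrsf8 and Miip are named outside this rule. Alternatives were DESeq2 1.42.0 size factors and test, no filter, a replicate block, limma 3.58.1 on log2 FPKM, fewer libraries and levels per kilobase of annotated exon.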

Additional observations from a re-analysis of the deposited data

Results flagged for a closer look

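Tnfsf8 was called higher than EV with BCR-ABL1 (log2 1.33) and lower with C-MYC (log2 -2.31), and the difference between the oncogenes was itself called (log2 3.64, SE 0.29, edgeR quasi-likelihood test, adjusted p = 0.000548). Ltb and Tnf also lay above EV in both BCR-ABL1 libraries and below EV in both C-MYC libraries. Their log2 differences between the oncogenes were 3.23 and 2.40 and were not tested, because this comparison entered the choice of the genes.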

How the results depend on the processing

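Of 108 member values with 1 library left out, 100 kept their direction and, where tested, their call, 6 lost the call and 2 changed sign. Values with no test could not lose a call, and some comparisons did not include the library left out. All 6 lost calls came from leaving out an oncogene library of the comparison concerned. With 1 library left in a condition, that library is assumed to vary like the others. For BCR-ABL1 against EV, leaving out libraries gave log2 -1.14 to -0.54 for Tnfrsf1b, 1 to 5 pathway genes higher and 4 to 30 lower. For C-MYC against EV it gave -1.29 to -0.10 for Lta, -1.22 to -0.79 for Tnf, -0.28 to 0.11 for Ltbr (reversed at 0.11 and 0.05), -1.96 to -0.90 for Tnfrsf1a and -1.02 to -0.42 for Tnfrsf1b, with 0 to 5 pathway genes higher and 25 to 49 lower. Between the oncogenes it gave 3 to 30 higher and 0 to 5 lower.

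Of 126 member values under the other alternatives, 122 kept direction and call. The 4 others, which had no test and moved by more than the replicate spread, were from limma in BCR-ABL1 against C-MYC, at 2.02 for Tnf, -0.87 for Ltbr and -0.76 for Tnfrsf1a on log2(FPKM + 1), and -1.82 for Ltbr on log2(FPKM + 0.1). Against EV on log2(FPKM + 1), Ltbr (-1.0) and Tnfrsf1a (-1.84) kept their calls with BCR-ABL1 at smaller sizes than from counts (-2.24 and -3.07). On log2(FPKM + 0.1) the median of all genes in C-MYC against EV was -0.179, beside -0.076 from counts. Against EV, DESeq2 called 5 pathway genes higher with BCR-ABL1, and limma 2 with C-MYC at either pseudocount. Between the oncogenes, 30 were higher and 5 lower in a fit of the 4 libraries compared, 2 lower without a filter or by DESeq2, and 1 chromosome neighbor was called without a filter. With a replicate block, 7 pathway genes were higher with BCR-ABL1 than EV, and 30 higher and 2 lower than with C-MYC. No member call changed. In each fit that changed these pathway counts, the number called over all genes moved the same way. With the block, 1221 of all genes were higher with BCR-ABL1 than EV, beside 650 without it. Nothing particular to the pathway is read from these changes. Same-numbered libraries deviated together (correlations of 0.204 to 0.273 over genes), but the labels do not say that a number marks a shared animal or culture, and with 2 libraries a condition the pairing was not settled. By CPM per kilobase, the log2 ratio to Tnfrsf1b was 2.96 and -0.11 for Lta in BCR-ABL1 and C-MYC, and -0.46, 1.80 and -1.56 for Ltb in EV, BCR-ABL1 and C-MYC, beside 2.32, -0.68, -1.14, 1.11 and -2.25 by FPKM. Ltbr in BCR-ABL1 rested on 19 and 25 counts.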
